A study of Rattus norvegicus with 5 samples.

Results

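Genes of fat absorption and chylomicron assembly were followed in rat small intestine after 1 month of mild calorie restriction (CR). They are 10 named genes: *Apoa1*, *Apoa4*, *Apob*, *Apoc3*, *Mttp*, *Fabp1*, *Fabp2*, *Cd36*, *Dgat1* and *Mogat2*. All gene probes (Affymetrix probe sets) whose annotated names include one of them were taken, which gave 10 of the 15866 gene probes and 8 of the 10 genes. *Mttp* and *Mogat2* had 0 gene probes under these names and are not analysed here. *Cd36* and *Apob* had 2 gene probes each, and 1 of the *Cd36* gene probes, 1386901_at, also carries the name *Cd36l1*. Of the 10 gene probes, 9 passed a filter on weak signals (a mean log2 signal over the 5 arrays at or above the median, which is a signal of 46.5). The gene probe below it, 1371157_at of *Apob*, is given as values only.

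The samples were small intestine from male Wistar rats, bought at 5 weeks of age and restricted from 6 weeks of age for 1 month on the same purified diet. The restricted groups received 5, 10, 20 or 30% less food than the recorded intake, and the control group received all of it. All rats were dissected after a 16 h fast, so every value describes fasted animals in both restricted and control groups. RNA of 5 rats was pooled for each group and each pool was hybridized to 1 array, so there are 4 CR arrays and 1 control array, each level was measured once, and the spread among the rats of a group is not known.

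After a meal, fatty acids and monoglycerides enter the absorptive cells of the gut, the enterocytes. The membrane protein encoded by *Cd36* binds long-chain fatty acids at the surface, and the cytosolic proteins of *Fabp1* and *Fabp2* carry them inside. The enzymes of *Mogat2* and *Dgat1* rebuild triglycerides. In the endoplasmic reticulum the transfer protein of *Mttp* loads these onto the apolipoprotein of *Apob*, and the particle, the chylomicron, leaves the cell with the apolipoproteins of *Apoa1*, *Apoa4* and *Apoc3* on its surface.

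Stretches of 250 bases before the annotated start were matched in RefSeq (build GRCr8) for 4 of the 10 genes: *Fabp2*, *Fabp1*, *Cd36* and *Apoa4*. They are shown so that the 3 genes of uptake and binding can be read beside an apolipoprotein gene. Capitals mark, on either strand, matches to the half-site TGNNCT repeated in the same direction with any 1 base between (N is any base), or to a TATA box, TATAAA.
Fabp2, chr2:213724379-213724628, plus strand: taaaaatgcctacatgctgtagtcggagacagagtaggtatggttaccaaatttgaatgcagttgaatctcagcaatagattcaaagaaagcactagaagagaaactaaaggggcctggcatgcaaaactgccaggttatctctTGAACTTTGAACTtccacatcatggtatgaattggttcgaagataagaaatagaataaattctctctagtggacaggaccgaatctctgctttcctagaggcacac
Fabp1, chr4:104749090-104749339, plus strand: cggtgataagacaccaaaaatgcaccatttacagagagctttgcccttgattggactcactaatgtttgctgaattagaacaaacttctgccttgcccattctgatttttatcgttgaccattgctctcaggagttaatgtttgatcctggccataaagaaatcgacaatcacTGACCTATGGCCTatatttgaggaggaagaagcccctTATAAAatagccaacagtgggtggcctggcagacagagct
Cd36, chr4:18246332-18246581, plus strand: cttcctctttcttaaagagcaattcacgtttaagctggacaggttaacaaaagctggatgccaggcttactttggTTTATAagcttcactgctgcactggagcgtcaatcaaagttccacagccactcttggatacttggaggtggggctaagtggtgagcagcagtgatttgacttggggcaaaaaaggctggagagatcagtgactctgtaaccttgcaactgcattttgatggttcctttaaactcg
Apoa4, chr8:55435529-55435778, plus strand: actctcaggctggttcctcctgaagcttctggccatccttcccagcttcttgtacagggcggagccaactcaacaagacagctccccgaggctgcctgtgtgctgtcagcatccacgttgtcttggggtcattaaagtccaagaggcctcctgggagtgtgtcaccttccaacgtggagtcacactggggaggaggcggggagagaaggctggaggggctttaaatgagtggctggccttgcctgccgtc
The repeat was found in *Fabp2* (TGAACTTTGAACT, its first base 106 bases before the start) and in *Fabp1* (TGACCTATGGCCT, 77 bases before), and in 2.23% of all 33469 stretches of this length. TATAAA was found in *Fabp1*, 40 bases before the start, and on the opposite strand in *Cd36*, 175 bases before the start, and in 12.9% of all stretches. The *Apoa4* stretch held neither. Both patterns were chosen after the sequences had been seen, and a match is a description of the letters only.

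The deposited signals share 1 scale: with 2% trimmed at either end, each of the 5 arrays had a mean of 132, and median signals lay between 44.9 and 49. The defining markers of the tissue were present. Of 12 enterocyte markers 10 were on the array and all 10 passed the filter, with signals between 130.4 and 3899. Of 8 markers of the proximal small intestine 7 were on the array and all 7 passed, and of 8 markers of the distal part 5 were on the array and 0 passed, with signals between 1.8 and 31.6. *Apoa1*, *Apob*, *Apoc3* and *Fabp1* are also strong in liver, and 0 of 8 liver markers on the array passed the filter (signals between 1.8 and 41.3, with albumin, *Alb*, between 11.6 and 26). The 20% CR array stood apart. Its beta-actin probe sets, which read RNA integrity, differed by 3.18 times between the 3' and the 5' end, beside a value between 2.20 and 2.41 on the other 3 CR arrays and the control array, while the same ratio for *Gapdh* was 1.27 on it, within the 1.21 to 1.40 of the others. The median log2 ratio of the 10 enterocyte markers to the control was 0.41 on it, against 0.14, −0.082 and 0.098 at 5, 10 and 30% CR. Single markers differed widely, from 0.171 (*Epcam*) to 0.997 (*Slc15a1*) at 20% CR and from −0.315 (*Anpep*) to 0.836 (*Slc5a1*) at 5% CR. Summed signals of 10 exocrine pancreas markers were 285 to 390 on the CR arrays and 898 on the control array, which is the reference of every ratio below. *Cela1* made up a large part of the CR sums (149.5 to 245.8, and 214.5 on the control array). Each of the others was highest on the control array, such as *Prss1* (174.3, against 2.4 to 71.2) and *Ctrb1* (74, against 0.7 to 15.5). The part of these differences in the results was not tested.

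The 3 genes of fatty acid uptake and binding lay above the control at all 4 CR levels, and *Fabp2* did so by 0.88 to 1.28 on the log2 scale. *Fabp2*, which encodes the intestinal fatty acid-binding protein, had a signal of 984 on the control array, then 1918 at 5%, 1806 at 10%, 2383 at 20% and 1969 at 30% CR. All 4 CR signals were well apart from the control signal, and the lowest CR signal, at 10%, was still 1.84-fold the control. The log2 ratios to the control were 0.96, 0.88, 1.28 and 1.00 (mean 1.03, SD over the levels 0.17), a mean of 2.04-fold. In limma, with the 4 CR pools as 1 group against the control pool, the standard error was 0.16 and the adjusted p = 0.183 (unadjusted p = 9.22e-05), so *Fabp2* did not pass 0.05 over all gene probes. Above the control at all 4 levels were 5 of the 9 gene probes (those of *Fabp2*, *Fabp1*, *Cd36* and *Apoa4*), and 19.0% of all gene probes. The same held for the enterocyte markers *Slc15a1*, *Slc5a1*, *Mme* and *Si*, with mean log2 ratios of 0.55, 0.51, 0.51 and 0.21, and not for the other enterocyte markers. In pooled tissue, more enterocytes and more RNA per enterocyte cannot be told apart.

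*Cd36*, the fatty acid receptor of the brush border, was read by 2 gene probes. The gene probe annotated to both *Cd36* and *Cd36l1* had 213 on the control array, then 434, 351, 342 and 436 from 5 to 30% CR. Its signals were highest at 5 and 30% CR and the control was the lowest. The log2 ratios were 1.03, 0.72, 0.69 and 1.04 (mean 0.87, SD over the levels 0.19, limma adjusted p = 0.363). The gene probe annotated to *Cd36* alone, 1367689_a_at, had 113 on the control array, then 194, 162, 130.3 and 201 from 5 to 30% CR. It had the same order of levels at its top, 30 and 5% CR, but at 20% CR it lay only a little above the control. Its log2 ratios were 0.78, 0.51, 0.20 and 0.83 (mean 0.58, SD over the levels 0.29, limma adjusted p = 0.988). Both gene probes could share signal with the neighbouring *Cd36l1*, so the split between these genes is uncertain. *Cd36* is made by macrophages, endothelium and adipocytes too. Summed signals of 4 macrophage markers were 2834, 3867, 3085 and 2737 at 5, 10, 20 and 30% CR and 2448 on the control array, and *Lyz2* made up most of each sum. The 3 of these markers past the filter lay above the control at all 4 levels, with mean log2 ratios of 0.53 for *Cd68*, 0.36 for *Csf1r* and 0.33 for *Lyz2*. Those of 5 endothelial markers were 318 to 387 on the CR arrays and 322 on the control array, and those of 5 adipose markers 237 to 336 and 264. Of the adipose markers, *Cfd* lay above the control at all 4 levels (105.9 to 140.3 on the CR arrays and 82.5 on the control array, mean log2 ratio 0.53, limma unadjusted p = 0.0316). *Fabp4* had 99.9 to 156.7 on the CR arrays and 121 on the control array, *Lpl* 16.3 to 39.6 and 47.7, and *Lep* and *Plin1* were near 0 (1 to 11.3 over the 5 arrays). The part of macrophages, endothelium and adipose tissue in the *Cd36* signals was not tested.

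*Fabp1*, which encodes the liver-type fatty acid-binding protein that the proximal gut also makes, had a signal of 4065 on the control array, then 5205, 5369, 6468 and 5401 from 5 to 30% CR. The 5, 10 and 30% CR signals were close together, 20% CR was the highest, and the control was the lowest of the 5. The log2 ratios were 0.36, 0.40, 0.67 and 0.41 (mean 0.46, SD over the levels 0.14, a mean of 1.38-fold). In limma the standard error was 0.15 and the adjusted p = 0.974 (unadjusted p = 0.0137). *Fabp1* thus lay on the same side of the control as *Fabp2* at every level, with a smaller ratio each time. The difference between these genes was not tested.

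**Figure D1:**
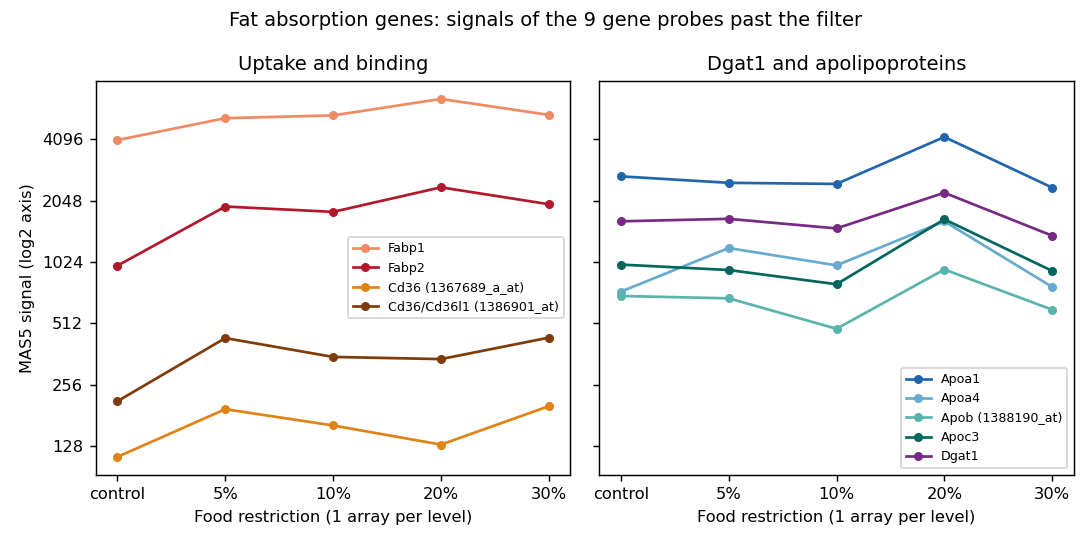
MAS5 signals (vertical log2 axis) on the control array and at 5, 10, 20 and 30% CR for the 9 gene probes past the filter, each point 1 array of a pool of 5 rats. Left, *Fabp1*, *Fabp2* and both *Cd36* gene probes, whose control signals are the lowest of the 5. Right, *Dgat1* and the apolipoprotein genes, whose signals are the highest at 20% CR.

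*Dgat1* and 3 of the 4 apolipoprotein genes had another pattern: they were near or below the control at 5, 10 and 30% CR and above it at 20% CR. *Dgat1*, which encodes an enzyme of the last step of triglyceride synthesis, had 1623 on the control array, then 1669, 1498, 2242 and 1380 from 5 to 30% CR. Only the 20% CR signal stood clear of the others, and 10 and 30% CR were below the control. The log2 ratios were 0.04, −0.12, 0.47 and −0.23 (mean 0.039, SD over the levels 0.31, limma adjusted p = 0.995).

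*Apoa1*, which encodes the main apolipoprotein of high-density lipoprotein, had 2697 on the control array, then 2507, 2476, 4208 and 2376 from 5 to 30% CR. Control, 5, 10 and 30% CR lay within a narrow range, and 20% CR was 1.56-fold the control. The log2 ratios were −0.11, −0.12, 0.64 and −0.18 (mean 0.058, SD over the levels 0.39, limma adjusted p = 0.995). *Apoc3*, whose product slows the removal of triglyceride-rich particles, had 996 on the control array, then 936, 797, 1660.5 and 927 from 5 to 30% CR. It too was below the control at 5, 10 and 30% CR and above it at 20% CR, with log2 ratios of −0.088, −0.32, 0.74 and −0.10 (mean 0.057, limma adjusted p = 0.995). *Apob*, which encodes the structural protein of the chylomicron, had 698 on the control array and 680, 482, 942 and 598 at its brighter gene probe, 1388190_at. Its lowest signal was at 10% CR and its highest at 20% CR, with log2 ratios of −0.039, −0.53, 0.43 and −0.22 (mean −0.091, limma adjusted p = 0.995). The other gene probe of *Apob*, 1371157_at, was weak, with 9 on the control array, then 12.7, 28.1, 10.8 and 13 from 5 to 30% CR, and did not follow the brighter one.

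The product of *Apoa4* is made by the gut in response to fat. Among the apolipoprotein genes of the 10, at gene probes past the filter, *Apoa4* alone lay above the control at all 4 levels. It had 733 on the control array, then 1200.1, 987, 1623 and 774 from 5 to 30% CR. The highest signal was again at 20% CR, and 30% CR was almost level with the control. The log2 ratios were 0.71, 0.43, 1.15 and 0.077 (mean 0.59, SD over the levels 0.45, a mean of 1.51-fold, limma adjusted p = 0.988). *Apoa1*, *Apoc3* and *Apoa4* lie on the same chromosome in the RefSeq rat annotation, with *Apoc3* between the others. At 5% CR, *Apoa4* was above the control while *Apoa1* and *Apoc3* were below it.

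**Figure D2:**
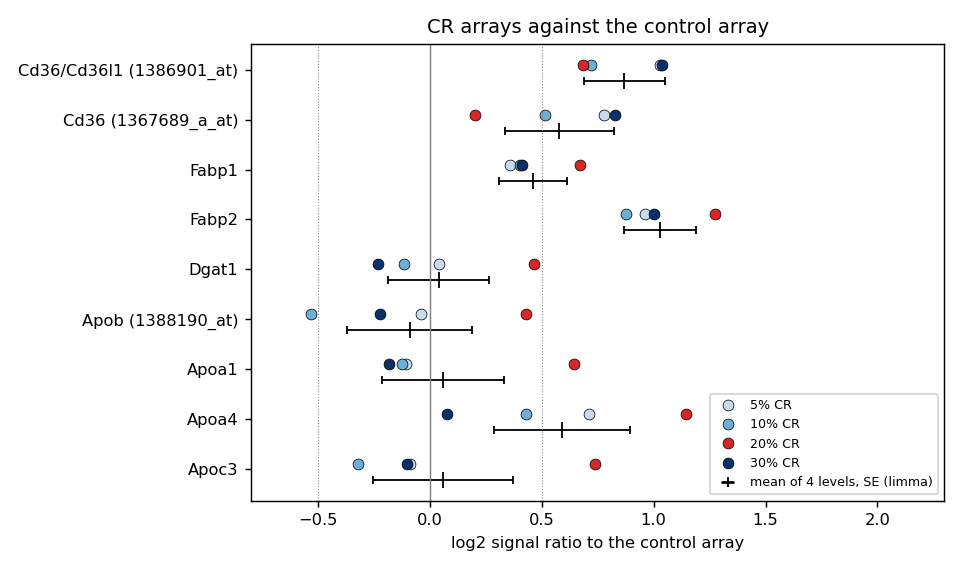
Log2 signal ratio to the control array (horizontal axis) for the 9 gene probes past the filter, with 1 coloured point per CR level and, below the points, the mean of the 4 levels with its limma standard error. The dotted lines mark the size of 0.5. *Fabp2* and the gene probe shared by *Cd36* and *Cd36l1* lie beyond 0.5 at all 4 levels, and the red 20% CR point is the highest for *Fabp1*, *Fabp2*, *Dgat1* and the apolipoprotein genes.

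With a size of 0.5 (log2 ratio, the same sign at each of the 4 levels), 2 of the 9 gene probes were higher (*Fabp2* and the gene probe shared by *Cd36* and *Cd36l1*) and 0 were lower. Over the 7933 gene probes past the filter 0.769% were higher and 0.340% lower by this rule. All 4 ratios share 1 control array, so they are not independent. The control signals of both (984 and 213) were above the filter value of 46.5, so neither passed the filter through its CR signals alone. Without the 20% CR array the count was 3, with *Cd36* at 1367689_a_at added, and with the arrays centred on the enterocyte markers it was 1, *Fabp2* alone. At single levels, of the 8 genes at their brightest gene probe with 1 name, 3 were higher by at least 0.5 at 5% CR, where 5.62% of all gene probes were, 2 at 10% CR (4.73%), 5 at 20% CR (3.95%) and 2 at 30% CR (7.51%). The count at 10% CR was 1 after quantile normalization, median centring or the added constant, and 3 with the arrays centred on the enterocyte markers. The count at 20% CR was 3 after quantile normalization, 6 after median centring and 2 with the arrays centred on the enterocyte markers. Lower by at least 0.5 was 1 gene, *Apob* at 10% CR, where 3.45% of all gene probes were, and 0 genes at 5, 20 and 30% CR (3.84%, 6.15% and 5.61% of all gene probes). The median log2 ratio of the 8 genes was 0.20, 0.14, 0.66 and −0.013 at 5, 10, 20 and 30% CR, beside 0.0048, 0.0059, −0.030 and 0.0012 over all gene probes. The median of their mean ratios was 0.26, beside −0.0057 over all gene probes, and 7 of the 8 had a positive mean, as did 49.1% of all gene probes. In limma 0 of the 9 gene probes and 0 of all 7933 passed an adjusted p of 0.05 (0% of all gene probes). Unadjusted, p was below 0.05 for 4 of the 9, all higher (*Fabp2*, *Fabp1* and both *Cd36* gene probes), and for 4.76% of all gene probes (2.71% higher and 2.05% lower).

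The 20% CR array gave the highest signal of the 5 arrays for 7 of the 9 gene probes, and for 21.2% of all gene probes. This was looked at after the values had been seen. Set against the mean of the other 3 CR arrays, the log2 signal at 20% CR was higher by 0.91 for *Apoc3*, 0.78 for *Apoa1*, 0.74 for *Apoa4*, 0.70 for *Apob* and 0.57 for *Dgat1*. It was higher by 0.33 for *Fabp2* and 0.28 for *Fabp1*. For *Cd36* it was lower, with −0.51 at 1367689_a_at and −0.24 at the gene probe shared with *Cd36l1*. The same difference had a median of 0.41 over the 10 enterocyte markers (range 0.18 to 0.75) and of −0.033 over all gene probes. All 10 enterocyte markers had their highest signal on this array. *Apoc3* lay above the range of the markers, and *Apoa1* did so by a narrow margin (0.78, against 0.75 for *Krt20*). *Apoa4*, *Apob*, *Dgat1*, *Fabp2* and *Fabp1* lay within the range, and both *Cd36* gene probes below it. After quantile normalization the markers ranged from 0.005 to 0.66, and *Apoa1* lay within that range. Of the 9 gene probes 5 exceeded the next highest array by at least 0.3 on the log2 scale (*Apoa1*, *Apoa4*, *Apob*, *Apoc3* and *Dgat1*), as did 2.33% of all gene probes. Among the 10 enterocyte markers, *Krt20* (0.595), *Anpep* (0.403) and *Mme* (0.344) did so, and the others did not.

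**Figure D3:**
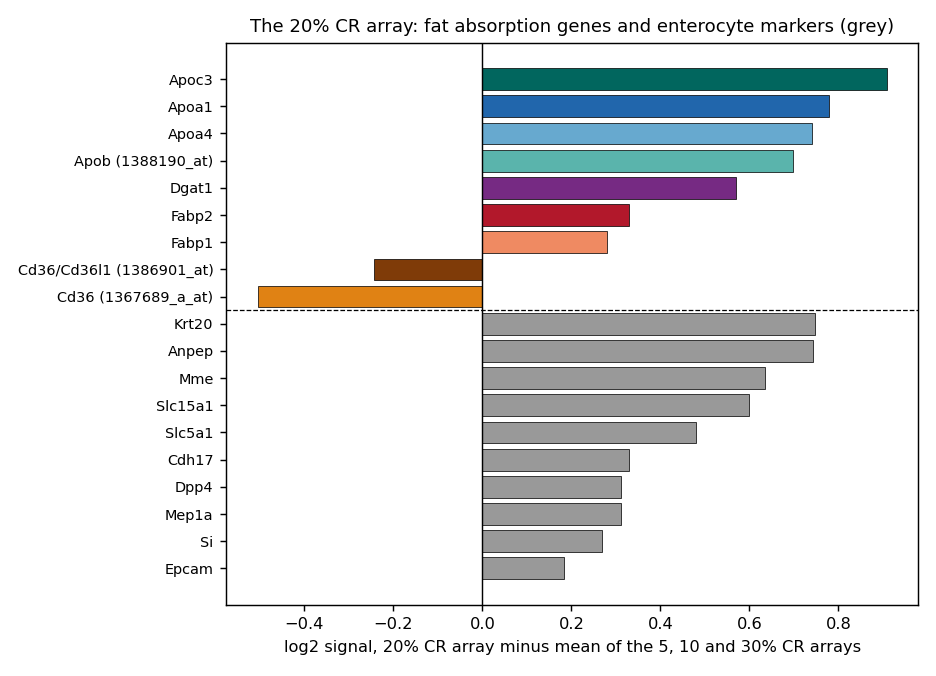
Log2 signal on the 20% CR array minus the mean log2 signal of the 5, 10 and 30% CR arrays, for the 9 gene probes of fat absorption (top, coloured) and the 10 enterocyte markers (bottom, grey), 1 bar per gene probe and no error since each level has 1 array. The apolipoprotein genes and *Dgat1* lie between 0.57 and 0.91, the markers between 0.18 and 0.75, and both *Cd36* gene probes below 0.

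With each array centred on the enterocyte markers, the *Fabp2* log2 ratios became 0.83, 0.96, 0.87 and 0.90 at the 4 levels (mean 0.89), so its levels came closer together. The gene probe shared by *Cd36* and *Cd36l1* had a mean of 0.73, *Cd36* at 1367689_a_at 0.44 and *Fabp1* 0.32. At 20% CR the shared gene probe was at 0.28, under the size of 0.5, and *Cd36* at 1367689_a_at was below the control (−0.21), as *Apoa4* was at 30% CR (−0.021), so on this scale neither 1367689_a_at nor *Apoa4* was above the control at all 4 levels. *Apoa4* had a mean of 0.45, and 0.74 at 20% CR. The ratios at 20% CR came down to 0.33 for *Apoc3*, 0.24 for *Apoa1*, 0.061 for *Dgat1* and 0.026 for *Apob*, and the means of *Apoa1*, *Apoc3* and *Dgat1* changed sign (−0.082, −0.083 and −0.10). Without the 20% CR pool, on the deposited scale, the mean log2 ratio was 0.95 for *Fabp2* (limma adjusted p = 0.0549), 0.39 for *Fabp1* and 0.41 for *Apoa4*, and it was −0.10 for *Dgat1*, −0.14 for *Apoa1*, −0.17 for *Apoc3* and −0.27 for *Apob*. On the enterocyte scale 5 of the 9 gene probes were highest on the 20% CR array, as were 2 of the 10 enterocyte markers. Over all gene probes the share was 1.1%, since the centring lowers that array as a whole.

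**Figure D4:**
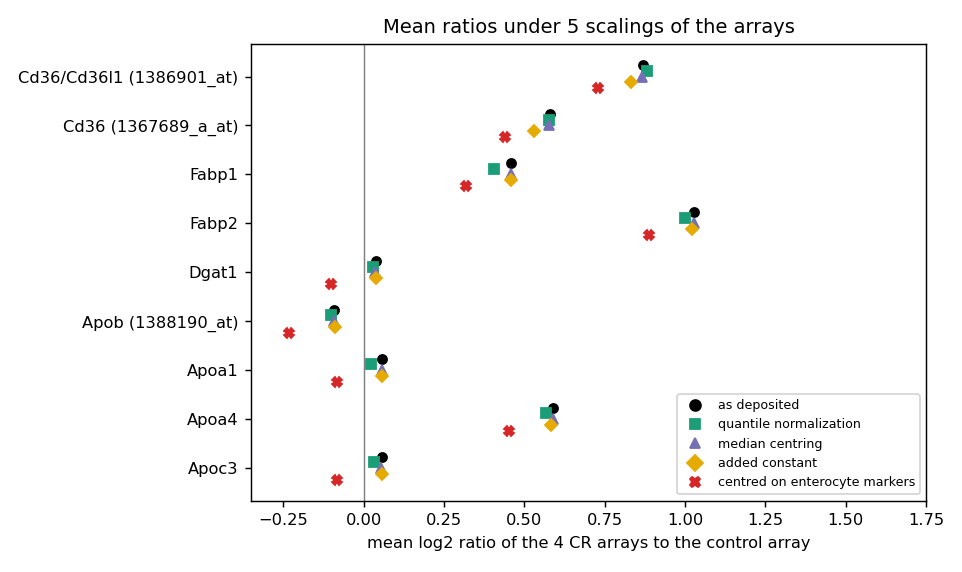
Mean log2 ratio of the 4 CR arrays to the control array (horizontal axis) for the 9 gene probes under 5 scalings, 1 symbol each. *Fabp2*, *Fabp1*, *Apoa4* and both *Cd36* gene probes stay above 0 under all 5, between 0.32 and 1.03, and the means of *Apoa1*, *Apoc3* and *Dgat1* lie above 0 under 4 of them and below 0 when the arrays are centred on the enterocyte markers.

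In a linear trend over the restriction level, 0 of the 9 slopes and 0 of all 7933 passed an adjusted p of 0.05 in limma (the smallest adjusted p = 0.998 over all gene probes), while 3.09% of all gene probes had an unadjusted p below 0.05. Among the 9, *Fabp2* alone did, and its log2 signal changed by 0.27 ± 0.10 per 10% of restriction (standard error, limma unadjusted p = 0.0273, adjusted p = 0.998). Over the 4 CR arrays without the control, its slope was 0.061. The slope of *Fabp1* was 0.13 ± 0.066, and 0.044 without the control. Those of *Apoa1*, *Apob*, *Apoc3*, *Apoa4* and *Dgat1* lay between −0.012 and 0.088. For the gene probe shared by *Cd36* and *Cd36l1* the slope was 0.207 ± 0.103, and 0.02 without the control. For *Cd36* at 1367689_a_at it was 0.132 ± 0.105, and 0.004 without the control. The gap between the control and 5% CR was thus larger than any step that followed it for *Fabp2* (log2 ratio of 0.96 at 5% CR and 1.00 at 30% CR) and for the gene probe shared by *Cd36* and *Cd36l1* (1.03 and 1.04).

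Other genes of the pathway were taken from 6 lists. Of 91 genes, 78 were on the array with a name of their own and 54 passed the filter. The mean ratio was above 0 for 27 of them and below 0 for the other 27, while 0 passed the size of 0.5 at all 4 levels in either direction (0.769% higher and 0.340% lower over all gene probes), and 0 passed limma. The limma unadjusted p was below 0.05 for 2 of the 54 that were higher and 1 that was lower, and for 2.71% (higher) and 2.05% (lower) of all gene probes. The median ratio of the 54 was 0.022, −0.046, 0.040 and −0.062 at 5, 10, 20 and 30% CR.

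Among 10 measured genes of fatty acid uptake and activation, 4 had a positive and 6 a negative mean. *Acsl1*, which activates long-chain fatty acids, had a mean log2 ratio of 0.25 and the acyl-CoA binding protein gene *Dbi* 0.15. The fatty acid transporter gene *Slc27a1* had −0.34 and *Got2*, a mitochondrial aminotransferase, −0.23. Of 13 genes of glyceride synthesis, 7 were positive and 6 negative. *Plpp1*, a lipid phosphatase gene, had 0.33, 0.34, 0.32 and 0.29 at 5, 10, 20 and 30% CR (mean 0.32, limma unadjusted p = 0.0369), and *Lpcat3*, which remodels phospholipids, a mean of 0.32. *Gpd1*, which makes glycerol phosphate, had −0.31, −0.49, −0.16 and −0.53 (mean −0.37, limma unadjusted p = 0.0464), and the phosphatidate phosphatase gene *Lpin1* −0.36. *Dgat2*, the other diacylglycerol acyltransferase gene, had a mean of 0.020, close to that of *Dgat1* (0.039).

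Only 2 further genes of apolipoproteins and of *Apob* RNA editing passed the filter. *Apoe*, found on many lipoproteins, lay above the control at all 4 levels, as *Apoa4* did. Its log2 ratios were 0.19, 0.47, 0.51 and 0.22 at 5, 10, 20 and 30% CR (mean 0.34). *Apobec1*, the editing enzyme, had a mean of 0.27. Of 12 genes of chylomicron assembly and vesicle transport, 6 were positive and 6 negative. *Pdia3*, a disulfide isomerase of the endoplasmic reticulum, had a mean of 0.37 (limma unadjusted p = 0.0314), and *Sar1b*, the small GTPase that chylomicron export needs, 0.21. *Surf4*, a cargo receptor, had −0.26 and the vesicle coat gene *Sec31a* −0.23. Of 8 genes of lipid droplets and lipolysis, 6 were positive and 2 negative, with *Plin4* (0.28) and *Aadac* (0.27) at the top and the droplet coat gene *Plin2* (−0.22) and the lysosomal lipase gene *Lipa* (−0.058) at the bottom. Of 9 transcription factors, 2 were positive and 7 negative. *Nr2f2* had 0.36 and *Nr1h3*, a sterol sensor, 0.056, against −0.18 for *Ppard*, a fatty acid sensor, and −0.15 for *Gata6*. None of these genes passed an adjusted p of 0.05 in limma.

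The gene probes whose 4 ratios were most like those of *Fabp2*, by the root mean square difference over the 4 levels, were those of *Sema6c* (0.047), *Slc6a20a* (0.13) and *Eif4ebp3* (0.13), with mean log2 ratios of 1.03, 1.08 and 1.10. Those most like the gene probe shared by *Cd36* and *Cd36l1* were *Rb1* (0.13), *Ctsf* (0.14) and *Dscc1* (0.14), with 0.78, 0.81 and 0.96. Their control signals were weak, at 28.9 for *Sema6c*, 43.1 for *Rb1*, 31.1 for *Ctsf* and 31.8 for *Dscc1*, below the filter value of 46.5, and 56.2 and 90.6 for *Slc6a20a* and *Eif4ebp3*.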

How the data were processed

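Small intestine RNA was measured on 5 Affymetrix rat GeneChip arrays, 1 for each pool of 5 rats (5, 10, 20 and 30% CR, and control). The deposited values are MAS5 signals, an intensity on a linear scale, that the authors computed with the GeneChip Operating Software (scaling target not given in the sources used here). Because MAS5 takes off a mismatch signal, ratios between weak signals are unsteady, and the scaling hides differences in total RNA. The number of arrays limits the precision.

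Signals below 0.1 were set to 0.1 before log2. The 57 control probe sets served for quality alone. Of the other 15866, 12783 carry 1 gene name, 312 several and 2771 none that could be used, and 0 symbols needed updating against the RefSeq table. The 7933 gene probes whose mean log2 signal reached the median of all (5.54) were tested. The 4 CR pools were set against the control pool, and a slope over the restriction level was fitted, with limma 3.58.1 in R 4.3.3 (lmFit and eBayes, trend = TRUE; two-sided tests with Benjamini-Hochberg adjustment over all tested gene probes, threshold 0.05). The fit treats the 4 levels as replicates, leaves 3 residual degrees of freedom and assumes that the single control pool varies like the CR pools. Its p-values thus measure only the spread between pools of different restriction levels. Any difference between the levels is part of that spread, and the spread between pools of the same diet is not known. The code was tested on simulated data.

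The genes, lists and comparisons were chosen with earlier results of these data known. Named are the 10 genes, the 2 highest and 2 lowest mean ratios of each pathway list, and the 3 gene probes most like each one past the size at all levels. Alternatives were quantile normalization, median centring, centring on enterocyte markers, 13 added to every signal, tests without the filter or above the upper quartile, no intensity trend, other sizes (0.3 and 1), the rank of the level, the mean of a gene's probes and each pool left out. Marker lists of proliferating crypt, goblet and smooth muscle cells had summed signals of 2264 to 2544, 15879 to 19830 and 7677 to 10742 on the CR arrays, and 2211, 18326 and 9675 on the control array.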

Additional observations from a re-analysis of the deposited data

Results flagged for a closer look

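For 2 of the 9 gene probes, 1 of the 4 CR arrays lay far from the other 3, as Dixon's criterion at the 95% level measures it. At 20% CR the log2 ratio of *Apoa1* was 0.642, against −0.18 to −0.11 at the other levels. *Fabp1* had 0.67 at 20% CR, against 0.36 to 0.41. Chance alone marks about 1 in 20 such groups, and both marks fall on the array on which all 10 enterocyte markers were highest. The *Fabp1* mark depends on the scaling. After quantile normalization *Fabp1* had 0.421, 0.336, 0.447 and 0.426 from 5 to 30% CR, so 20% CR did not stand apart. With the enterocyte centring it had 0.219, 0.483, 0.265 and 0.312, with the highest value at 10% CR.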

How the results depend on the processing

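No paired analysis was possible because each pool was measured under 1 diet and no level has a second pool. In limma 0 gene probes passed in the comparison with the control and 0 in the trend. With the arrays centred on the enterocyte markers, 2 passed in the comparison (*Dbp* and the gene probe of *Cyp2b1* and *Cyp2b2*, chosen for mention after their values were seen) and 1 in the trend (*Akp3*). With single pools left out, the count in the comparison lay between 0 and 3 (*Per2* added, without the 30% CR pool) and that in the trend was 0. The count of 2 gene probes past the size at all levels was 1 with the enterocyte centring (*Fabp2*), 0 at a size of 1, and 2 to 3 with single pools left out. The median of the mean ratios, 0.26, ranged from 0.14 without the 20% CR pool to 0.33 without the 10% CR pool, and was 0.12 with the enterocyte centring. The adjusted p of *Fabp2* lay between 0.0549 and 0.462 over 11 alternatives, with mean ratios of 0.89 to 1.08.

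Mean ratios that changed sign were those of genes near 0. With the enterocyte centring they were −0.101 for *Dgat1*, −0.082 for *Apoa1*, −0.083 for *Apoc3* and −0.084 for *Nr1h3*. With single pools left out, they ranged from −0.103 to 0.13 for *Dgat1*, −0.137 to 0.138 for *Apoa1*, −0.171 to 0.182 for *Apoc3*, −0.265 to 0.057 for *Apob* and −0.010 to 0.11 for *Nr1h3*. Without the 20% CR pool *Dgat1*, *Apoa1* and *Apoc3* were below 0, without the 10% CR pool *Apob* was above 0, and the cause was not tested. Slopes with the enterocyte centring were −0.018 for *Apoa1*, −0.022 for *Apoa4* and −0.043 for *Apob*. With single pools left out, slopes ranged from −0.001 to 0.217 for *Cd36* (1367689_a_at), −0.087 to 0.226 for *Dgat1*, −0.050 to 0.341 for *Apoa1*, −0.144 to 0.492 for *Apoa4*, −0.019 to 0.376 for *Apoc3* and −0.063 to 0.198 for *Apob*. Of 551 values of single genes and of counts at single levels under the alternatives, 526 kept their direction and side of the threshold or stayed within 1.5 times, 20 changed sign and 5 counts moved further. With 1 array per level, no difference between neighbouring levels could be tested.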
